A study of Penicillium oxalicum with 12 samples.

Results

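Transcript levels were compared between H2BK131A and H2BK123A, 2 strains of the filamentous fungus Penicillium oxalicum each carrying alanine in place of a different lysine in its histone H2B. The comparison used 3 libraries of each strain, 6 of the 12 libraries of the series, and all genes with an FPKM, a fragment count scaled for transcript length and library size, of 1 or more in at least 3 of the 12 libraries. That rule kept 9431 of the 9931 genes listed and left out 500. At its edge, the third-highest FPKM of a gene was 0.99 in the nearest gene left out and 1.0 in the nearest gene kept. Of the genes kept, 74 passed through the H2BK131A libraries alone and 4 through the H2BK123A libraries alone, so that these had to differ.

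H2B is one of the 4 core histones around which DNA is wound. In budding yeast, the ligase Bre1 and the conjugating enzyme Rad6 attach a single ubiquitin to lysine 123 of H2B, and this mark is needed for methylation of histone H3 by COMPASS and by Dot1. The sources used here do not say which of the lysines mutated in P. oxalicum, if any, corresponds to that site or carries ubiquitin. P. oxalicum secretes cellulases, hemicellulases and amylases, and its genes for carbon and nitrogen use are controlled by regulators that respond to glucose, plant polymers and nitrogen sources.

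The strains were H2BK131A (lysine 131 of H2B to alanine), H2BK123A (lysine 123 of H2B to alanine), DlaeA (deletion of laeA, a regulator of secondary metabolism and development in filamentous fungi) and the wild type 114-2 (WT), with 3 libraries each. All were mycelia taken 24 h after washed hyphae, pre-grown for 22 h at 30 °C, had been moved into Mandel's medium, and glucose at 2% was the carbon source in both steps. The sources used here give neither how the point mutations were made nor how many transformants stand behind each strain. No label states that replicate libraries were grown as independent cultures, and the p-values therefore rest on a library spread that could be technical.

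FPKM sums were 747266.5 to 764698.6 in the H2BK131A libraries and 720306.0 to 739528.0 in the H2BK123A libraries, with 157 to 169 and 202 to 206 genes listed at 0. The 10 highest genes held 8.41% to 8.59% of the FPKM in H2BK131A and 9.68% to 10.6% in H2BK123A. Read depth is unknown. Libraries of 1 strain lay close together: the median SD of a gene on the log2(FPKM + 1) scale was 0.124 in H2BK131A, 0.111 in H2BK123A, 0.124 in DlaeA and 0.223 in WT. The first 3 principal components held 50.7%, 35.1% and 9.5% of the variance, and the 3 libraries of each mutant lay together in them. WT replicate 2 lay apart from WT replicates 1 and 3 on the third component (7.72, against 42.82 and 37.62), and WT values are therefore given per library.

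The H2B gene itself, PDE_01489 by its description, was at FPKM 1100.5, 1059 and 1117 in H2BK131A, against 992, 890.0 and 978 in H2BK123A. Its difference on the log2 scale was 0.20 ± 0.13, which was not called (limma, Benjamini-Hochberg adjusted p = 0.188), and its sign turned with quantile scaling (-0.03). Expression values do not show the codon, so this check says nothing about the mutations themselves. PDE_00584, the locus recalled as laeA, was at 39.4, 39.1 and 33.6 in H2BK131A, against 33.8, 33.4 and 35.5 in H2BK123A, and was not called either (limma, adjusted p = 0.296). It was at 0.11, 0.05 and 0 in DlaeA, the strain labelled as the laeA deletion. The locus is not named in the files.

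Most genes differed between the mutants. Of the 9431 genes tested, 6479 (68.7%) were called at an adjusted p under 0.05 (limma on log2(FPKM + 1), Benjamini-Hochberg): 3107 (32.9%) were higher and 3372 (35.8%) were lower in H2BK131A than in H2BK123A. A change of at least 2-fold was called for 1434 genes (15.2%) in the higher direction and 1512 (16.0%) in the lower. Changes of at least 16-fold were called for 46 higher and 81 lower genes, and 55 of these genes have no description. The libraries of the mutants did not overlap at 7405 genes (78.5%), so that a gene without overlap is the usual case. Over all genes tested, the median log2 fold change was -0.05 and the median size of a change, whatever its sign, was 0.63. With median-ratio or quantile scaling the larger of the 2-fold groups became the higher one, 1503 against 1430 and 1551 against 1391 genes, so the balance of directions is not a result. Since 68.7% of all genes were called, a called gene is no exception here. Counts of called members in the lists below are to be set against 32.9% higher and 35.8% lower over all genes. Values given in parentheses after a gene are log2 fold changes, H2BK131A minus H2BK123A, with ± the standard error of the limma fit. Against WT, 6675 genes (70.8%) were called for H2BK131A and 4399 (46.6%) for H2BK123A. These comparisons share the WT libraries and are given only side by side.

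**Figure D1:**
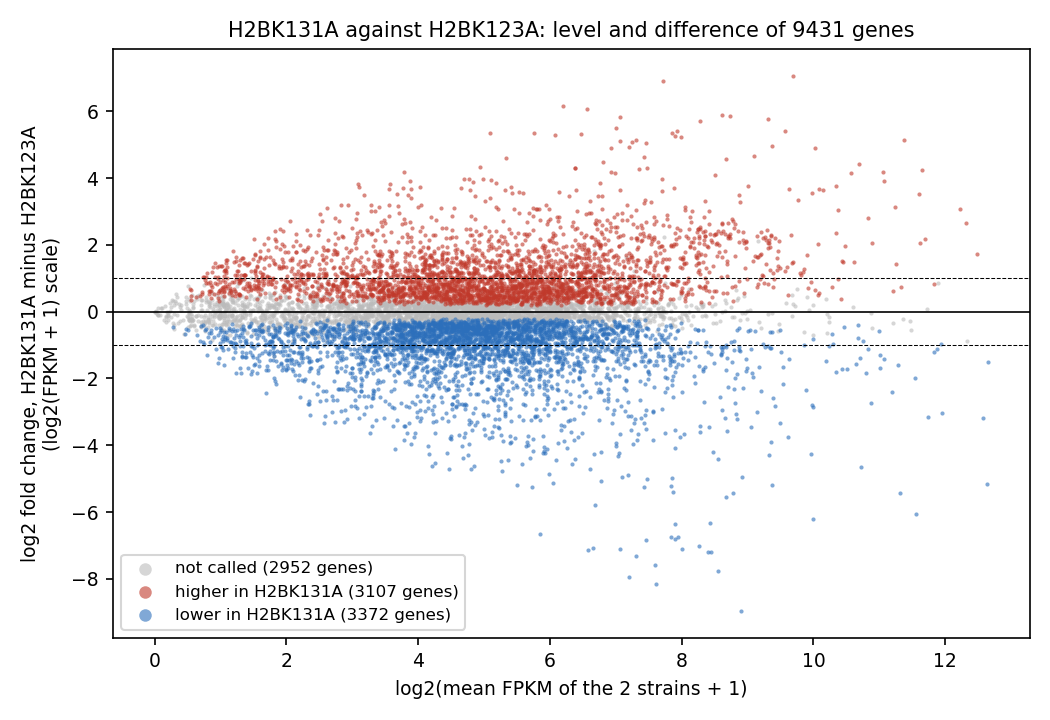
Difference between the mutants against level for the 9431 genes tested. The x axis is log2 of the mean FPKM of both strains plus 1, the y axis is the log2 fold change, H2BK131A minus H2BK123A, and the dashed lines mark 2-fold. The 3107 higher genes (red) and 3372 lower genes (blue) spread over the whole range of levels, with 2952 genes not called (grey) around 0.

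The largest increase in H2BK131A among genes with a level of at least 10 FPKM in the higher strain was that of PDE_04041, which has no description. It was at FPKM 1361, 2061 and 1509.5 in H2BK131A, against 13.2, 6.48 and 15.9 in H2BK123A, a difference of 7.06 ± 0.34 on the log2 scale (limma, adjusted p = 1.61e-08), and at 1.36, 2.13 and 0.98 in WT. The groups were far apart, with every H2BK131A library at least 1361. PDE_03140, described as a sugar:H+ symporter, a membrane protein that carries sugar into the cell together with a proton, was at 906, 792 and 805 in H2BK131A, against 15.1, 9.62 and 16.7 in H2BK123A (5.85 ± 0.25). PDE_08927, described as an arrestin-related trafficking adapter, the class of protein that marks plasma membrane transporters for uptake in yeast, was at 407, 569.8 and 454 in H2BK131A, against 11.2, 6.53 and 13.8 in H2BK123A (5.42 ± 0.23). PDE_09478, a putative endo-beta-1,4-xylanase, an enzyme that cuts the xylan backbone, was at 264, 254 and 230.5 in H2BK131A, against 4.9, 3.6 and 5.22 in H2BK123A (5.50 ± 0.17). WT was also low at these genes: the WT libraries were at 2, 4.32 and 1.73 for PDE_03140, 14.3, 12.4 and 9.44 for PDE_08927 and 2.83, 3.19 and 2.15 for PDE_09478. The other members of this group were PDE_01478, PDE_06126, PDE_02134, PDE_06916, PDE_01465 and PDE_03282, which have no description, and the neighbours PDE_01480 and PDE_01482 described below. Their log2 fold changes ran from 5.42 for PDE_01480 to 6.91 for PDE_01478. PDE_06126 differed from them in WT, where its libraries were at 94.9, 1.86 and 38.5.

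The largest decreases were at pigment genes and at several genes of metabolism. PDE_03294, a putative cutinase, an esterase that cuts the plant surface polymer cutin, was at FPKM 0.39, 0.20 and 0.51 in H2BK131A, against 309.9, 480.0 and 380.4 in H2BK123A, a difference of -8.14 ± 0.23 on the log2 scale (limma, adjusted p = 1.86e-09). It was at 432, 555 and 272 in WT. PDE_05532, described as D-arabinitol 2-dehydrogenase, which oxidises a sugar alcohol, was at 2.12, 2.13 and 2.55 in H2BK131A, against 474, 969.5 and 786 in H2BK123A (-7.77 ± 0.27). PDE_08879, described as a mitochondrial carrier of the solute carrier family 25, was at 0.46, 1.33 and 0.96 in H2BK131A, against 564, 255 and 334 in H2BK123A (-7.60 ± 0.43). PDE_04297, described as adenylosuccinate synthase, an enzyme of purine synthesis, was at 0.56, 0.19 and 0.74 in H2BK131A, against 188, 229 and 180.2 in H2BK123A (-7.07 ± 0.28). Every H2BK131A library was under 3 FPKM at these 4 genes, and no library overlapped with H2BK123A. PDE_05650 and PDE_06813 have no description. PDE_06813 was at 5.44, 2.76 and 3.19 in H2BK131A, against 621, 748 and 699 in H2BK123A, and at 3717, 2821 and 3984 in WT. PDE_05650 was at 0.95, 1.64 and 0.40 in H2BK131A, against 237, 285 and 272 in H2BK123A, and at 97.9, 129 and 88.2 in WT. The rule that chose these and the preceding genes required that the H2BK131A and H2BK123A libraries not overlap.

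**Figure D2:**
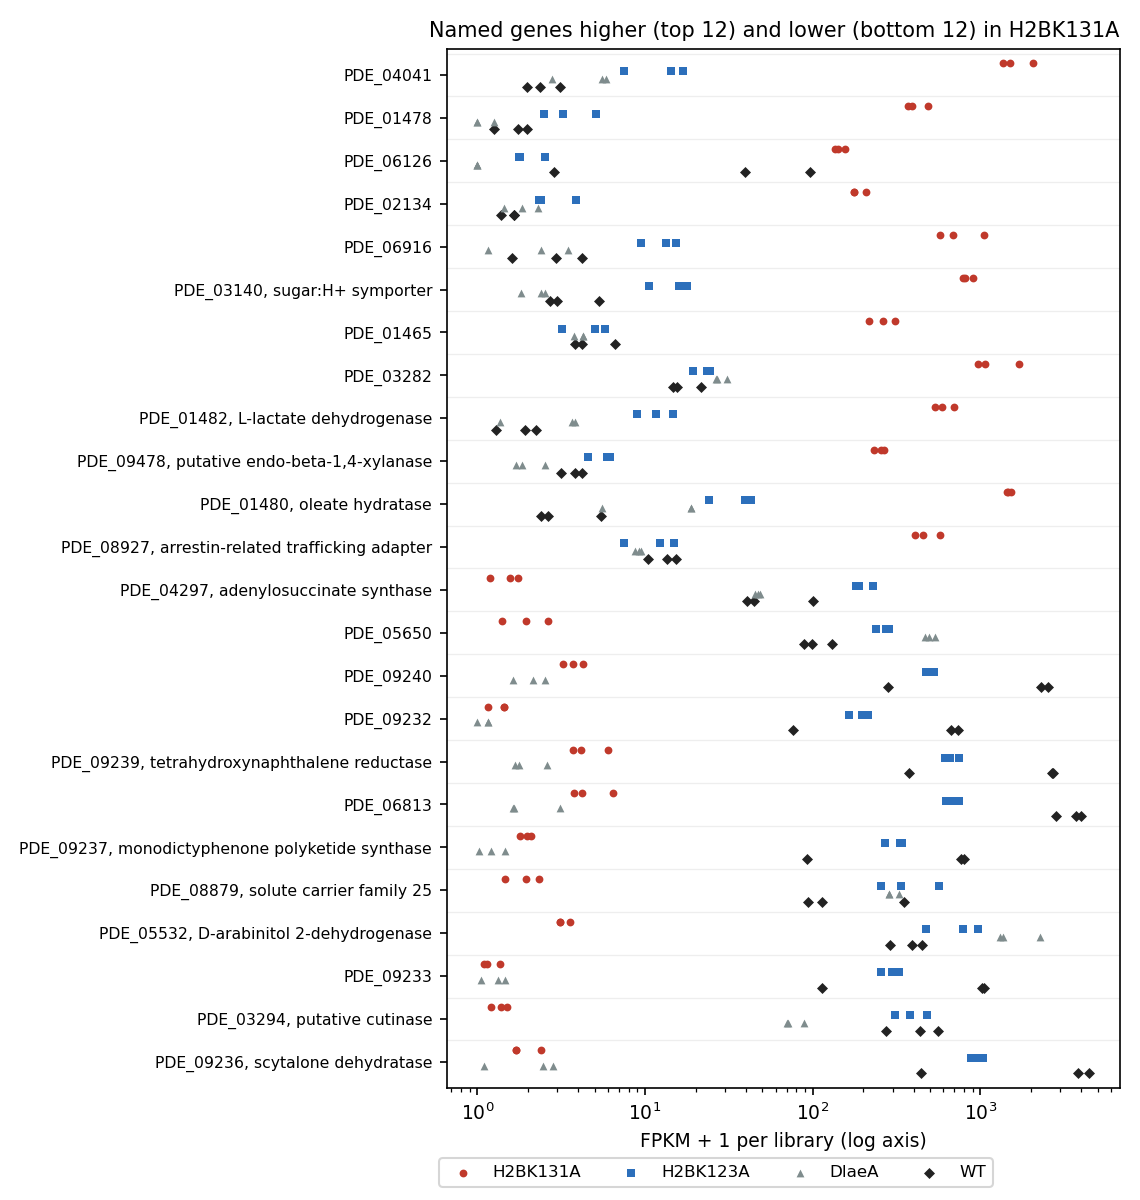
FPKM plus 1 (log axis) in each library for the 12 genes most raised and the 12 most lowered in H2BK131A, with 3 points per strain. For the 12 upper genes the H2BK131A points lie at 134 FPKM or more and the H2BK123A points at 41.9 or less, and for the 12 lower genes the H2BK131A points lie at 5.44 or less and the H2BK123A points at 163 or more.

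The longest run of neighbouring loci that moved together held 20 genes, PDE_09226 to PDE_09245, all called lower in H2BK131A by at least 2-fold. Their median log2 fold change was -6.69, from -8.97 to -1.02. The median FPKM over these genes was 3.39, 2.825 and 3.345 in the H2BK131A libraries, against 319.8, 318.9 and 262.4 in H2BK123A, with 0.795, 1.29 and 0.27 in DlaeA and 913, 212.8 and 1012 in WT. WT replicate 2 was thus below the H2BK123A libraries and WT replicates 1 and 3 above them. The run has 10 described members, among them enzymes with names from polyketide and pigment synthesis, and also a putative endo-beta-1,4-glucanase, PDE_09226. PDE_09237, described as a monodictyphenone polyketide synthase, the enzyme class that builds the carbon skeleton, was at FPKM 0.79, 0.97 and 1.09 in H2BK131A, against 329, 341 and 270.0 in H2BK123A. It was at 761, 91.5 and 795 in WT and 0.21, 0.46 and 0.02 in DlaeA. PDE_09236, a scytalone dehydratase, and PDE_09239, a tetrahydroxynaphthalene reductase, bear names from dihydroxynaphthalene melanin synthesis, the pathway of a dark cell wall pigment. PDE_09236 was at 0.71, 0.71 and 1.39 in H2BK131A, against 1031, 964 and 876 in H2BK123A, a difference of -8.97 ± 0.69 on the log2 scale (limma, adjusted p = 4.64e-07), and PDE_09239 at 3.17, 2.73 and 5.04 in H2BK131A, against 745, 658 and 611 in H2BK123A (-7.20 ± 0.59). PDE_09228, described as an aflatoxin efflux pump, a transporter, was at 3.39, 2.74 and 3.67 in H2BK131A, against 314, 752 and 389 in H2BK123A (-6.73 ± 0.36). PDE_09231, described as a norsolorinic acid ketoreductase, an enzyme known from aflatoxin synthesis in Aspergillus, was at 3.06, 2.43 and 2.53 in H2BK131A, against 213, 201 and 187 in H2BK123A (-5.78 ± 0.60), and PDE_09244, an O-methyltransferase by its description, at 13, 10.5 and 11.1 in H2BK131A, against 265, 268 and 211 in H2BK123A (-4.31 ± 0.16). All 3 H2BK131A libraries were low and all 3 H2BK123A libraries high at each of these genes.

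At PDE_09236 and PDE_09237, H2BK123A lay inside the range of the WT libraries, while H2BK131A and DlaeA were both near 0. For PDE_09236 the WT libraries were at 4451, 439.7 and 3834, so that WT replicate 2 stood apart from the other 2. Against WT the difference on the log2 scale was -10.00 ± 0.69 for H2BK131A (limma, adjusted p = 1.39e-07) and -1.04 ± 0.69 for H2BK123A (limma, adjusted p = 0.243). The spread of the WT libraries enters the error of every difference here, because the 4 strains share 1 variance per gene. PDE_09226 and PDE_09245, the ends of the run, the second of them named after its value was seen, had smaller differences, -1.41 and -1.02. The next loci outside it did not continue the run: PDE_09225, chosen here after its value was seen, was higher in H2BK131A, at 139.9, 213 and 121 in H2BK131A, against 8.11, 4.01 and 9.79 in H2BK123A (4.29 ± 0.41), and PDE_09246, chosen in the same way, was not called (0.03 ± 0.30, limma adjusted p = 0.942).

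**Figure D3:**
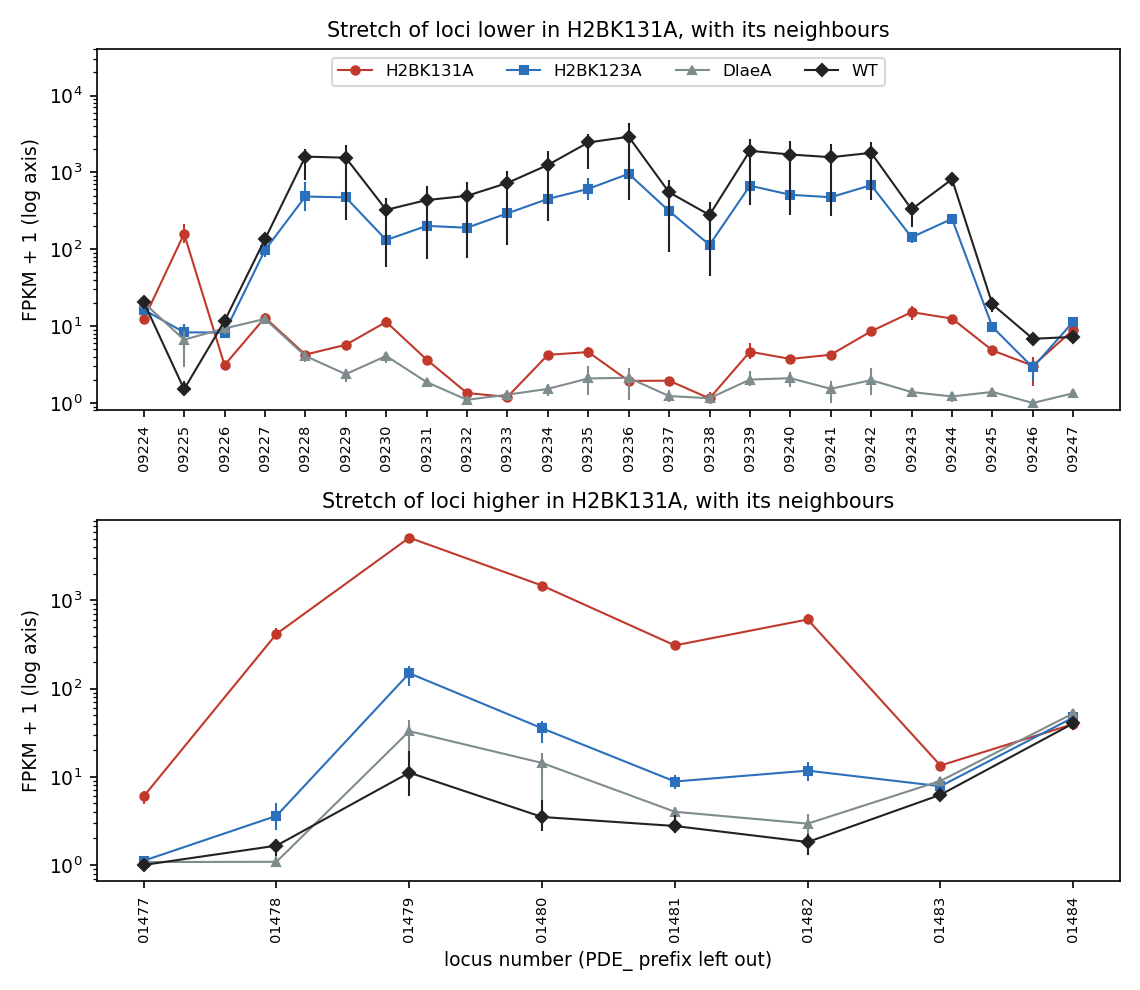
Mean FPKM plus 1 (log axis) along neighbouring loci in the 4 strains, with vertical lines from the lowest to the highest library. In the upper panel the 20 loci from PDE_09226 to PDE_09245 were lower in H2BK131A than in H2BK123A, and DlaeA was also low at all but the first of them, PDE_09226, and in the lower panel the 6 loci from PDE_01477 to PDE_01482 were high in H2BK131A and lower in the other 3 strains.

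The run of 6 loci from PDE_01477 to PDE_01482 went the other way, with log2 fold changes of 2.42 to 6.91 and a median of 5.28. Its first locus, PDE_01477, passed the filter through the H2BK131A libraries alone. PDE_01480, described as oleate hydratase, which adds water to a double bond of oleic acid, was at FPKM 1452, 1527 and 1443 in H2BK131A, against 38.4, 23.2 and 41.9 in H2BK123A, and at 1.64, 4.46 and 1.41 in WT. PDE_01481, described as pyruvate, water dikinase, which forms phosphoenolpyruvate from pyruvate, was at 315, 309.8 and 300.0 in H2BK131A, against 7.63, 6.35 and 9.55 in H2BK123A (5.14 ± 0.18). PDE_01482, described as L-lactate dehydrogenase, which interconverts pyruvate and lactate, was at 538, 694 and 591 in H2BK131A, against 10.7, 7.92 and 13.7 in H2BK123A, a difference of 5.72 ± 0.35 on the log2 scale (limma, adjusted p = 9.01e-08). H2BK131A was above H2BK123A in every library at these genes. H2BK123A was itself above WT at PDE_01480 (3.40 ± 0.44, limma adjusted p = 0.000131) and PDE_01482 (2.70 ± 0.35, limma adjusted p = 0.000133).

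In all, 54 runs of at least 5 called genes with a 2-fold change in 1 direction were found, 19 higher and 35 lower in H2BK131A. The higher runs held 108 such genes and the lower runs 215. A run could skip 1 other gene at a time in locus order, so that many runs are not unbroken. For example, PDE_09776 to PDE_09784 spans 9 genes, of which 5 were called lower by 2-fold. With 1 library of the mutants left out, 48 to 59 runs were found. How many runs would arise without any link between neighbours was not tested. In the higher runs, PDE_02135 and PDE_02137, described as alpha and beta subunits of a fungal fatty acid synthase, were at FPKM 18, 17.2 and 14.4 in H2BK131A, against 0.85, 0.85 and 0.99 in H2BK123A and at 10.7, 9.01 and 9.67 in H2BK131A, against 2.76, 2.37 and 2.77 in H2BK123A. PDE_04277, a norsolorinic acid ketoreductase by its description, was at 85.3, 117 and 102 in H2BK131A, against 13, 8.97 and 11.6 in H2BK123A (3.08 ± 0.20). PDE_06062, described as methylisocitrate lyase, an enzyme of propionate breakdown, was at 2839.9, 3106 and 3473 in H2BK131A, against 280.5, 107 and 101 in H2BK123A (4.42 ± 0.57). PDE_06674, described as a siderophore-iron:H+ symporter, which takes up chelated iron, was at 66.4, 59.1 and 50.8 in H2BK131A, against 3.02, 2.46 and 2.9 in H2BK123A (3.97 ± 0.17). PDE_06884, described as an allantoate permease, was at 262, 209 and 210.4 in H2BK131A, against 38.5, 18.9 and 33.8 in H2BK123A (2.91 ± 0.23).

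In the lower runs, PDE_08070, PDE_08071 and PDE_08072 are described as enzymes of carotenoid synthesis, phytoene desaturases and a phytoene synthase with lycopene cyclase. PDE_08071 was at FPKM 4.55, 4.57 and 5.26 in H2BK131A, against 44.2, 42.3 and 35.8 in H2BK123A (-2.85 ± 0.19), and the other members had log2 fold changes of -1.87 for PDE_08070 and -2.82 for PDE_08072. These carotenoid genes were higher in H2BK123A than in WT, where PDE_08071 was at 6.96, 12.5 and 12.9. PDE_00008, described as a 3-dehydroquinate synthase, the enzyme class that closes the ring in the shikimate pathway, was at 5.23, 5.45 and 4.34 in H2BK131A, against 151, 118 and 118 in H2BK123A, and its neighbours PDE_00009 and PDE_00010, described as catechol O-methyltransferases, had log2 fold changes of -3.71 and -2.86. PDE_04982, described as the activator UGA3, a regulator of 4-aminobutyrate use in yeast, was at 42.3, 25.3 and 31.4 in H2BK131A, against 660.2, 765 and 710.1 in H2BK123A, and PDE_04983, an aldolase by its description, at 3.53, 2.19 and 2.34 in H2BK131A, against 139, 111 and 133 in H2BK123A. The run PDE_10000 to PDE_10010 holds genes described with names from indole diterpene and fumitremorgin synthesis, among them PDE_10003, described as a fumitremorgin C monooxygenase, at 0.52, 0.39 and 0.41 in H2BK131A, against 9.14, 17.1 and 11.6 in H2BK123A. In DlaeA that gene was higher than in either point mutant, at 132, 126 and 129.9.

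Genes of protein synthesis were higher in H2BK131A. Of 145 ribosomal protein genes tested, 133 were called higher and 7 lower, with a median log2 fold change of 1.65, against 32.9% higher and a median of -0.05 over all genes. The summed FPKM of the list was 49081, 54381 and 52903 in H2BK131A, against 14123, 12931 and 14910.0 in H2BK123A, with 8290.6, 15958 and 13800.0 in WT. PDE_08216, a putative 40S ribosomal protein S10b, was at 539, 629.5 and 600.3 in H2BK131A, against 57, 51.3 and 69.6 in H2BK123A (3.30 ± 0.32), PDE_02775, small subunit protein S12e, at 717, 769.7 and 791 in H2BK131A, against 121, 104 and 120.2 in H2BK123A (2.72 ± 0.29), and PDE_00779, large subunit protein L10Ae, at 79.3, 169.7 and 121 in H2BK131A, against 16.8, 14.2 and 16.1 in H2BK123A (2.83 ± 0.22). The 7 lower members included PDE_02709 (L13 domain, -2.19), PDE_03049 (described as a carboxylesterase and mitochondrial ribosomal protein, -1.15) and PDE_00150 (L3e, -0.95). Members described with eukaryotic-type subunit names, which form the cytosolic ribosome, had a median of 2.14 (73 of 76 higher, 3 lower), and the other members had a median of 0.88 (60 of 69 higher, 4 lower). That split was made after the descriptions and values had been seen. Reads of near-identical gene copies could be divided between them by the counting, which the sources used here do not describe.

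Genes of ribosome assembly and translation were also higher by count. Of 96 ribosome biogenesis genes, 69 were higher and 8 lower (median 0.67). PDE_01461, described as the U3 small nucleolar RNA-associated protein 21, a part of the machinery that processes ribosomal RNA, was at FPKM 82.8, 82.8 and 76.9 in H2BK131A, against 8.97, 8.7 and 11.4 in H2BK123A (2.94 ± 0.14). PDE_00286, described as fibrillarin, which methylates ribosomal RNA, was at 157, 173 and 176 in H2BK131A, against 51, 54.6 and 66.1 in H2BK123A. PDE_05818, 1 of 2 named genes described as NET1-associated nuclear protein 1, went the other way, at 42.5, 28.2 and 35.2 in H2BK131A, against 178, 214 and 203 in H2BK123A (-2.47 ± 0.14), while PDE_09406, the other, was at 242, 256 and 277 in H2BK131A, against 74.4, 48.9 and 53 in H2BK123A (2.14 ± 0.15). Of 111 tRNA synthetase and translation factor genes, 79 were higher and 12 lower (median 0.74). PDE_03486, elongation factor 3, a fungal factor that helps release spent tRNA from the ribosome, was at 178, 182 and 178 in H2BK131A, against 27, 19.5 and 34 in H2BK123A (2.73 ± 0.17), and PDE_00026, elongation factor 1-gamma, at 287, 248 and 249.9 in H2BK131A, against 45.8, 32.2 and 29.5 in H2BK123A. Members that fell included PDE_09012, described as elongation factor 1-alpha, at 73.1, 72.5 and 74.5 in H2BK131A, against 323, 391 and 378 in H2BK123A (-2.29 ± 0.10), PDE_06482, described as an RNA interference protein of the Qde2 type and not a translation factor (-2.21), and PDE_04829, described as aspartyl-tRNA synthetase. PDE_04829 was at 59.1, 76.7 and 53 in H2BK131A, against 891, 632 and 744 in H2BK123A (-3.57 ± 0.28). The summed FPKM of the tRNA synthetases alone, a group split off after the values had been seen, was lower in H2BK131A, 4038.2 to 4283.0 against 4588.7 to 4897.0 in H2BK123A, although 33 of 43 members were higher and their median was 0.84. PDE_04829 accounted for 53 to 76.7 FPKM of those sums in H2BK131A and for 632 to 891 in H2BK123A.

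Respiratory genes were also higher. Of 122 genes of mitochondrial respiration and the tricarboxylic acid (TCA) cycle, 101 were called higher and 7 lower, with a median of 0.82, and the summed FPKM was 32707, 33614 and 34181 in H2BK131A, against 17273, 14677 and 15561 in H2BK123A. PDE_07836, subunit c of the F-type ATPase, which makes ATP from the proton gradient, was at FPKM 5399.9, 5798 and 5909 in H2BK131A, against 546, 459 and 472 in H2BK123A (3.53 ± 0.36, limma adjusted p = 4.3e-06). PDE_08885, described as the cytochrome c oxidase assembly protein subunit 15, was at 335, 405 and 416 in H2BK131A, against 35.7, 28 and 28.4 in H2BK123A (3.61 ± 0.17). All 15 F-type ATPase subunits were higher (median 0.82), as were 24 of 26 NADH dehydrogenase subunits (median 0.72) and 22 of 26 members of cytochrome c oxidase and reductase (median 1.31), and the rest of these groups, chosen after the values had been seen, were not called. PDE_08098, described as cytochrome c peroxidase, was lower (-1.10), as was PDE_06030, a methyltransferase of ubiquinone synthesis by its description (-2.64). The isopropylmalate dehydrogenases PDE_00542 and PDE_08096, which belong to leucine synthesis, were taken into the list by its search pattern and had log2 fold changes of 3.56 and -2.29.

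Heat shock genes were higher by count. Of 48 heat shock protein and chaperone genes, 30 were higher and 8 lower (median 0.55). The summed FPKM was 23476, 27759 and 26041 in H2BK131A, against 8344.8, 7425.1 and 8505.4 in H2BK123A. PDE_02095, a small heat shock protein of the HSP20 family, was at FPKM 7719, 9158 and 8734 in H2BK131A, against 1173, 753 and 1137 in H2BK123A (3.09 ± 0.30), and at 66, 108 and 175 in WT, below both mutants. PDE_00322, of the same family, was at 1842, 2397 and 2246 in H2BK131A, against 484, 359.6 and 434 in H2BK123A (2.34 ± 0.18). PDE_01365, described as the DnaJ homolog C2, a chaperone partner of Hsp70, was at 184, 216 and 218 in H2BK131A, against 29.9, 29.3 and 36.5 in H2BK123A. PDE_01090, described as the Hsp70 nucleotide exchange factor fes1, was lower, at 51.9, 109.9 and 129 in H2BK131A, against 279.9, 237 and 263 in H2BK123A (-1.51 ± 0.35), as were PDE_02704, described as DnaJ homolog C9 (-1.15), and PDE_06380, described as the mitochondrial chaperone BCS1 (-0.68). In the peptidase list, PDE_00424, described as the chaperone ClpB, was at 711, 942 and 806 in H2BK131A, against 181, 181 and 200.0 in H2BK123A (2.12 ± 0.20).

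The neighbouring nitrate genes PDE_00369 to PDE_00371 were higher in H2BK131A, while PDE_02461, a second locus described as nitrate reductase, was lower, at 0.80, 0.51 and 0.79 in H2BK131A, against 12.3, 12.2 and 11.9 in H2BK123A (-2.95 ± 0.18). PDE_00369, nitrate reductase, which reduces nitrate to nitrite, was at FPKM 897, 905 and 1036 in H2BK131A, against 117, 60.9 and 46.8 in H2BK123A, a difference of 3.75 ± 0.27 on the log2 scale (limma, adjusted p = 2.58e-07). PDE_00370, nitrite reductase, which forms ammonium, was at 1877, 2049 and 2313 in H2BK131A, against 279, 139.8 and 115 in H2BK123A (3.64 ± 0.36), and the neighbouring nitrate/nitrite transporter PDE_00371 at 723, 757 and 853 in H2BK131A, against 45.5, 29.2 and 23.3 in H2BK123A (4.58 ± 0.19). WT was near 0 at the reductases, 0.69, 1.46 and 0.61 for PDE_00369 and 2.94, 9.18 and 3.08 for PDE_00370, so that both mutants were above WT. Against WT the difference of PDE_00369 on the log2 scale was 8.97 ± 0.27 for H2BK131A (limma, adjusted p = 4.94e-10) and 5.22 ± 0.27 for H2BK123A (limma, adjusted p = 4.13e-07).

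Ammonium genes were divided. PDE_06117, the NADP+-dependent glutamate dehydrogenase, which fixes ammonium into glutamate, was at FPKM 1039, 981 and 1144 in H2BK131A, against 64, 40.7 and 25.8 in H2BK123A (4.66 ± 0.58), and the other locus described as a glutamate dehydrogenase, PDE_06171, went the opposite way, at 52.6, 45.8 and 53.9 in H2BK131A, against 684, 418 and 595 in H2BK123A (-3.43 ± 0.21). The ammonium transporter PDE_00679 was higher, at 242, 219.6 and 226 in H2BK131A, against 17.6, 9.75 and 9.36 in H2BK123A (4.17 ± 0.30), and PDE_07123, also an ammonium transporter by its description, was lower, at 8.66, 6.65 and 5.52 in H2BK131A, against 18.2, 17.8 and 19.4 in H2BK123A (-1.31 ± 0.18). Of the 23 genes in the list, 16 were higher and 6 lower, with a median of 0.70. The summed FPKM was 8027.1, 8134.3 and 8960.2 in H2BK131A, against 2868.1, 2075.4 and 2287.3 in H2BK123A.

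Of 84 amino acid biosynthesis genes, 54 were higher and 20 lower (median 1.04). PDE_06146, asparagine synthase, was at FPKM 141, 194 and 193 in H2BK131A, against 19.4, 14.2 and 16.7 in H2BK123A (3.31 ± 0.14), and the leucine synthesis gene PDE_00542 at 87.2, 77.3 and 98.8 in H2BK131A, against 6.75, 6 and 6.68 in H2BK123A. PDE_02287, homoserine kinase, an enzyme of threonine synthesis, was at 88.7, 92 and 103 in H2BK131A, against 13.1, 10.8 and 7.14 in H2BK123A (3.11 ± 0.72), while its WT libraries were widely spread, at 201, 14.3 and 154. Among the lower members, PDE_04106, cystathionine gamma-synthase of the methionine pathway, was at 3.39, 2.52 and 2.71 in H2BK131A, against 36, 58 and 48.8 in H2BK123A (-3.63 ± 0.43), and PDE_02392, dihydroxy-acid dehydratase of branched-chain amino acid synthesis, at 3.52, 2.26 and 2.49 in H2BK131A, against 26.8, 29.5 and 27.4 in H2BK123A (-2.96 ± 0.18). The summed FPKM of the list was 8542.3, 9619.8 and 9833.7 in H2BK131A, against 4182.2, 3933.6 and 4034.5 in H2BK123A. PDE_05422, a homocysteine methyltransferase by its description, which makes methionine, was at 115, 158 and 159 in H2BK131A, against 157, 108 and 142 in H2BK123A, with overlapping libraries, and PDE_02771, described as tryptophan synthase, at 15.3, 25 and 17.1 in H2BK131A, against 51.2, 19.9 and 17.4 in H2BK123A. Neither was called (limma, adjusted p = 0.805 and 0.22), and leaving out H2BK123A replicate 1 moved PDE_02771 to 0.0099. Both were higher in the mutants than in WT, PDE_02771 by 4.08 in H2BK131A and 4.54 in H2BK123A on the log2 scale.

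**Figure D4:**
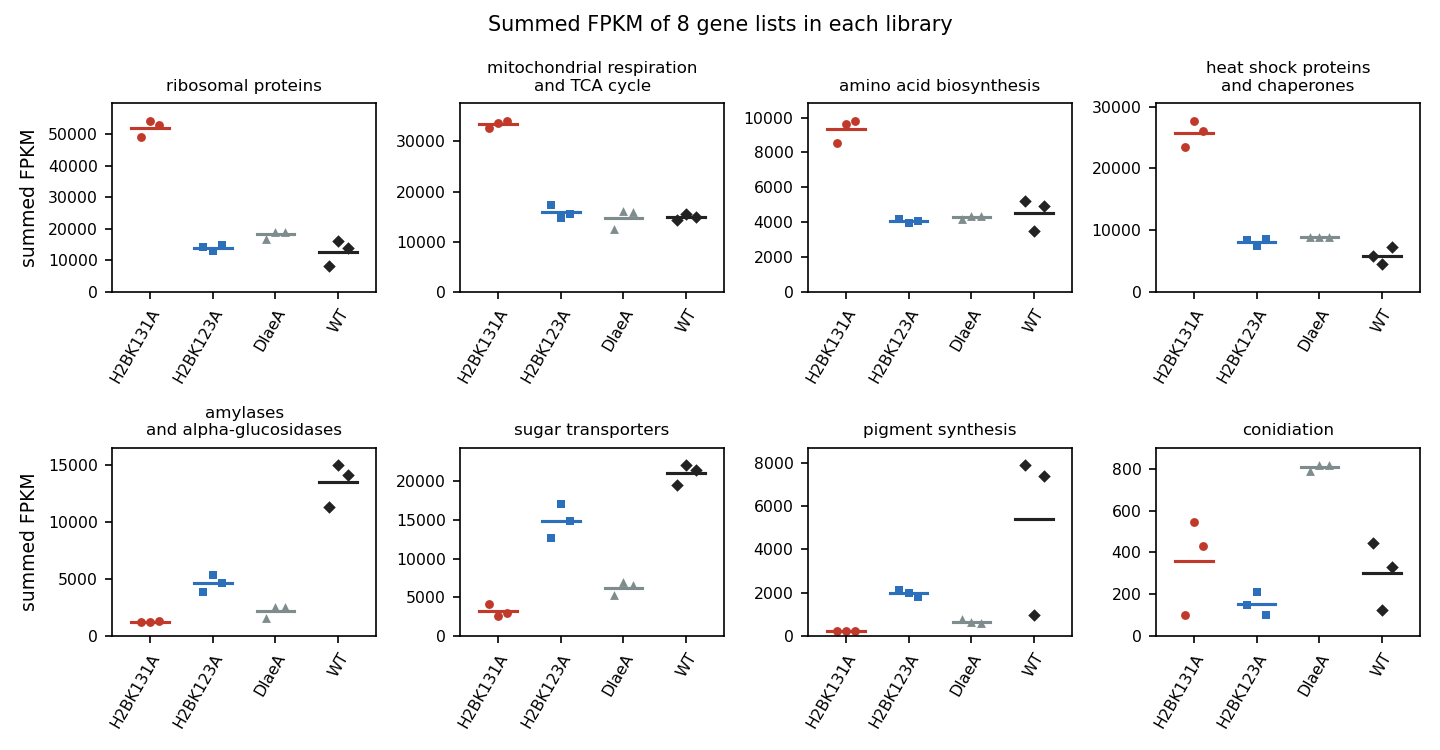
Summed FPKM of 8 gene lists in each library (points) with the strain mean (line), and axes starting at 0. Ribosomal, respiratory, amino acid biosynthesis and heat shock lists were highest in the 3 H2BK131A libraries, the amylase, sugar transporter and pigment lists were lower in H2BK131A than in H2BK123A, and the conidiation list overlapped between the mutants.

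Genes of starch use were lower in H2BK131A. PDE_09417, glucoamylase Amy15A, which releases glucose from the ends of starch chains, was at FPKM 26.8, 22.6 and 27.8 in H2BK131A, against 1523, 2476 and 2040.2 in H2BK123A, with a fold change of -6.21 ± 0.57 on the log2 scale (limma, adjusted p = 1.79e-06). PDE_01201, a putative alpha-amylase, which cuts within the chains, was at 5.46, 4.07 and 4.9 in H2BK131A, against 66.7, 246 and 153 in H2BK123A (-4.57 ± 0.46), and PDE_04151, a putative alpha-glucosidase, at 18.1, 9.1 and 13.7 in H2BK131A, against 396, 463 and 477 in H2BK123A (-4.98 ± 0.28). H2BK123A was itself below WT at all 3, which stood at 7746, 10192 and 10117 for PDE_09417, 1185, 1254 and 1196 for PDE_01201 and 599, 1047 and 715 for PDE_04151 in the WT libraries, with adjusted p from limma of 0.00763, 0.000255 and 0.0396 for H2BK123A against WT. Of 18 genes in the list, 11 were lower and 4 higher (median -1.39), and the summed FPKM was 1243.0, 1195.2 and 1264.5 in H2BK131A, against 3884.0, 5298.0 and 4638.8 in H2BK123A and 11299, 15007 and 14077 in WT. The 4 higher members were PDE_03235, a putative alpha-glucosidase, at 299.7, 306 and 323 in H2BK131A, against 140.2, 114 and 118 in H2BK123A, PDE_03292, which is described as a chitin binding protein, and PDE_06621, named after its value was seen and let through the filter by the H2BK131A libraries alone, and PDE_09401, which are described as alpha-1,3-glucan enzymes and so act on fungal cell wall glucan.

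Of 41 genes matched as cellulases, 23 were lower and 8 higher (median -0.61), and of 108 hemicellulase and pectinase genes, 58 were lower and 25 higher (median -0.48, and -0.79 with a filter at 5 FPKM). In each of these lists, 2 members passed the filter through the H2BK131A libraries alone, so that their direction was fixed by it. PDE_02736, beta-glucosidase I, which splits cellobiose into glucose, was at FPKM 14, 8.89 and 9.63 in H2BK131A, against 322, 557 and 449 in H2BK123A (-5.22 ± 0.20, limma adjusted p = 4.15e-09). PDE_07945, cellobiohydrolase, which releases cellobiose from cellulose, was low in both mutants, at 1, 0.77 and 0.72 in H2BK131A, against 3.34, 6.08 and 2.99 in H2BK123A (-1.44 ± 0.27), and at 38.2, 17.1 and 19.8 in WT. PDE_00752, a putative endo-beta-1,4-xylanase, was at 1.58, 0.88 and 1.07 in H2BK131A, against 34.5, 44.2 and 41.4 in H2BK123A (-4.24 ± 0.24), PDE_04359, feruloyl esterase, at 0.52, 0.26 and 0.51 in H2BK131A, against 14.1, 20.0 and 16.2 in H2BK123A, and PDE_02689, a putative rhamnogalacturonan hydrolase, at 8.18, 4.39 and 4.42 in H2BK131A, against 43.5, 70.8 and 54.4 in H2BK123A. Members that rose included PDE_03711, a putative endo-beta-1,4-glucanase, at 355, 377 and 419 in H2BK131A, against 59.9, 48.2 and 57.4 in H2BK123A (2.78 ± 0.13), PDE_04488, a putative exo-arabinanase, at 71.5, 67.3 and 56.1 in H2BK131A, against 7.72, 5.61 and 7.13 in H2BK123A (3.08 ± 0.15), PDE_03218, a putative polygalacturonase, at 195, 179.9 and 171 in H2BK131A, against 40.7, 45.2 and 47 in H2BK123A (2.02 ± 0.17), and the xylanase PDE_09478 given above. Genes with the same kind of description thus changed in opposite directions. The cellulase list holds 12 genes described as 1,3-glucan enzymes, which act on the fungal wall, with a median of -0.27. The other 29, a split made after the descriptions and values had been seen, had a median of -0.61, 17 lower and 5 higher. PDE_07585, described as alpha-L-arabinofuranosidase 4, did not overlap between the mutants, at 15.8, 11.2 and 11.3 in H2BK131A, against 21.2, 32.6 and 21.8 in H2BK123A, but was not called with all 12 libraries (limma, adjusted p = 0.286), while its WT libraries were at 1256, 74.9 and 459. Without the WT libraries it was called (limma, adjusted p = 0.00603).

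Regulators of these enzymes were named from an earlier analysis of these data. The enzyme genes above were in part named for wide fold changes, so the sizes are not comparable. PDE_07674, XlnR, an activator of xylanase and cellulase genes, was at FPKM 13.2, 9.6 and 10.4 in H2BK131A, against 35.8, 35.1 and 34.2 in H2BK123A (-1.59 ± 0.13), and PDE_03168, described as the carbon catabolite repressor, which in fungi represses genes for other carbon sources on glucose, was at 202, 156 and 193 in H2BK131A, against 569, 484 and 544 in H2BK123A (-1.54 ± 0.18). Both were called lower in H2BK131A. PDE_05999, the cellulase activator ClrB, was at 59.8, 58.2 and 53.9 in H2BK131A, against 67.1, 73.6 and 71.6 in H2BK123A (-0.30 ± 0.10, limma adjusted p = 0.018), and this call was lost when H2BK131A replicate 3, H2BK123A replicate 2 or H2BK123A replicate 3 was left out (limma, adjusted p = 0.0715, 0.0618 and 0.0508).

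Sugar transporters were lower by count. Of 33 genes, 19 were lower and 6 higher (median -0.77). The summed FPKM was 4101.2, 2561.7 and 3012.7 in H2BK131A, against 12682, 17027 and 14890.0 in H2BK123A and 19471, 22121 and 21418 in WT. PDE_09994, a putative maltose permease, was at 12.8, 5.37 and 6.55 in H2BK131A, against 314, 368 and 318 in H2BK123A (-5.26 ± 0.23), and PDE_00771 and PDE_01850, sugar:H+ symporters, at 2.3, 1.44 and 1.44 in H2BK131A, against 97.5, 114 and 96.4 in H2BK123A and at 14.4, 7 and 8.9 in H2BK131A, against 348, 331 and 356 in H2BK123A. PDE_06397, a symporter of the same description, was higher, at 674, 346 and 455 in H2BK131A, against 94.7, 55.2 and 54.3 in H2BK123A (2.83 ± 0.27), as were PDE_06025, at 14.8, 46.1 and 19.1 in H2BK131A, against 0.40, 0.78 and 0.73 in H2BK123A, and PDE_03140, given above. In the wider list of 116 transporters of the major facilitator superfamily, which holds these sugar symporters too, 60 were lower and 32 higher (median -0.57). The filter was passed by 4 of its members through the H2BK131A libraries alone and by 1 through the H2BK123A libraries alone. PDE_04150, an alpha-glucoside:H+ symporter, was at 14.4, 6.83 and 8.85 in H2BK131A, against 379, 539.6 and 445 in H2BK123A (-5.41 ± 0.29), and PDE_05937, described as a multidrug resistance transporter, at 30.1, 109 and 57.7 in H2BK131A, against 0.30, 0.38 and 0.65 in H2BK123A. PDE_04150 neighbours the alpha-glucosidase PDE_04151 in locus number, and PDE_05937 was under 1 FPKM in every library outside H2BK131A. PDE_05937 and PDE_06025 passed the filter through the H2BK131A libraries alone, so that their direction was fixed by it and their values are a description. Of 28 amino acid and peptide transporters, 11 were higher (39.3%, against 32.9% of all genes) and 13 lower (46.4%, against 35.8%). Their median of -0.01 turned its sign with median-ratio and quantile scaling (0.03 and 0.08) and without H2BK131A replicate 3 or H2BK123A replicate 2 (0.01 and 0.03). PDE_00845, an amino acid transporter, was at 5.74, 3.18 and 3.96 in H2BK131A, against 47.8, 53.2 and 43.2 in H2BK123A (-3.24 ± 0.18), and at 3079.7, 2627 and 2667 in DlaeA. PDE_01916, an oligopeptide transporter, was lower (-2.91), as was PDE_06018 (-2.36), while PDE_04259, PDE_00830 and PDE_09673 were higher (3.01, 1.64 and 1.41).

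Carbon metabolism did not move as 1 block. Of 55 glycolysis genes, a list that also takes in alcohol dehydrogenases, 27 were higher (49.1%, against 32.9% of all genes) and 14 lower (25.5%, against 35.8%). The median log2 fold change was 0.34. The summed FPKM of the list was higher, at 15695, 16420 and 16484 in H2BK131A, against 6338.2, 5151.5 and 5795.5 in H2BK123A. The median log2(FPKM + 1) of its members overlapped, at 5.22, 4.9 and 4.49 in H2BK131A, against 5.02, 5.03 and 4.97 in H2BK123A. PDE_04873, pyruvate decarboxylase, the first step from pyruvate to ethanol, was at FPKM 1653, 1967 and 1956 in H2BK131A, against 194, 116 and 172 in H2BK123A (3.55 ± 0.23). The NADP+-dependent alcohol dehydrogenases PDE_01202 and PDE_01734 were higher (3.33 and 3.26), while the alcohol dehydrogenases PDE_00833 and PDE_01278 were lower, PDE_00833 at 43.4, 17.7 and 21.4 in H2BK131A, against 441, 485 and 410.3 in H2BK123A (-4.07 ± 0.27). PDE_07268, a class II fructose-bisphosphate aldolase, was at 12, 6.45 and 8.86 in H2BK131A, against 102, 74.9 and 105 in H2BK123A (-3.25 ± 0.33), a level that in H2BK131A lay near that in WT (8.08, 18.4 and 8.18). PDE_08878, phosphoenolpyruvate carboxykinase, the entry step of sugar synthesis from TCA cycle acids, was at 231, 189 and 198 in H2BK131A, against 1525, 320.3 and 582 in H2BK123A (-1.67 ± 0.43), with 1 H2BK123A library well above the other 2.

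Of 64 lipase and fatty acid oxidation genes, 35 were lower and 15 higher (median -0.54). Besides the cutinase PDE_03294, PDE_08787, acyl-CoA dehydrogenase, which takes the first step of fatty acid oxidation, was at FPKM 11.5, 8.08 and 7.89 in H2BK131A, against 180.5, 222 and 174 in H2BK123A (-4.26 ± 0.19), and PDE_09947, triacylglycerol lipase, which splits fats, at 4.9, 4.4 and 5.16 in H2BK131A, against 109.8, 150.3 and 77.2 in H2BK123A (-4.24 ± 0.49). PDE_00022, a long-chain acyl-CoA synthetase, which activates fatty acids, was at 13.3, 15.8 and 15.5 in H2BK131A, against 0.21, 0.15 and 0.03 in H2BK123A, but passed the filter through the H2BK131A libraries alone, so that its direction was fixed by it. Higher members that passed it otherwise included PDE_04681, phospholipase C (2.34), and PDE_04643, a mitochondrial acylcarnitine carrier (1.30). PDE_09947 was far above both mutants in WT, at 3507, 631 and 2180.1.

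A list held 14 genes of the H2B ubiquitination pathway and of the histone methylation that depends on it in yeast. Rad6 and Dot1 were also searched for, but no member bears either name. The list thus covers the pathway only in part. Its median was -0.07 (-0.02 with quantile scaling). Of its genes, 3 were called higher (21.4%, against 32.9% of all genes) and 5 lower (35.7%, against 35.8%). These were 8 calls that became 5 without H2BK131A replicate 2 and 3 in each direction with quantile scaling. The E3 ligase gene PDE_03581, Bre1, was at FPKM 34.4, 39 and 34.3 in H2BK131A, against 35.2, 38.4 and 40.6 in H2BK123A, with overlapping libraries (-0.08 ± 0.12, limma adjusted p = 0.561), and its sign turned with quantile scaling (0.008). Among subunits of COMPASS, PDE_09099, described as SPP1, was at 8.82, 6.9 and 7.84 in H2BK131A, against 33, 38.4 and 38 in H2BK123A (-2.08 ± 0.16), PDE_07451, SWD2, at 16.1, 14.7 and 15.3 in H2BK131A, against 32.7, 31.1 and 33.1 in H2BK123A (-1.02 ± 0.09), and PDE_09908, SWD3, at 47.7, 41.3 and 45.5 in H2BK131A, against 76.4, 80.5 and 74.2 in H2BK123A (-0.77 ± 0.12). The other loci with these names, PDE_04952 (SPP1, -0.40) and PDE_07010 (SWD3, -0.37), were called, but both calls were lost with quantile scaling, that of PDE_04952 also without H2BK131A replicate 2, H2BK131A replicate 3 or H2BK123A replicate 3, and that of PDE_07010 without H2BK131A replicate 2 or H2BK123A replicate 1. PDE_05171, a further SPP1 locus, was not called (-0.36 ± 0.22, limma adjusted p = 0.162), but was called without the WT libraries (limma, adjusted p = 0.00535). PDE_00581 (SWD1) and PDE_01442 (BRE2) were not called (0.02 and 0.01), nor were the loci described as CTR9 of the Paf1 complex, which helps place the ubiquitin mark in yeast, PDE_02281 (0.06) and PDE_02275 (-0.06). The remaining members were called higher by small amounts, PDE_09172 (SDC1, 0.32 ± 0.10), PDE_01860 (RTF1, 0.27 ± 0.09) and PDE_06785 (LEO1, 0.26 ± 0.09), and each of these calls was lost without 1 or 2 of the 6 libraries.

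Among 63 histone genes and other chromatin genes, 11 were higher (17.5%, against 32.9% of all genes) and 19 lower (30.2%, against 35.8%), with a median of -0.10. With quantile scaling the counts were equal at 16 (median -0.04). The summed FPKM was 7445.7, 7067.8 and 7270.4 in H2BK131A, against 8425.4, 7622.1 and 8002.5 in H2BK123A. PDE_00041, described as the deacetylase complex subunit SAP18, was at 55.9, 57.6 and 58.5 in H2BK131A, against 25.9, 23.2 and 23.3 in H2BK123A (1.22 ± 0.15), PDE_08324, a SWI/SNF-related remodeller of subfamily A, at 52.2, 49.6 and 49.8 in H2BK131A, against 22.9, 21.5 and 23.3 in H2BK123A (1.13 ± 0.09), and PDE_07341, the histone deacetylase HOS2, at 75.3, 76.8 and 72.9 in H2BK131A, against 39.6, 42 and 42 in H2BK123A. Lower members included PDE_04912, an RSC3/30 subunit of the RSC remodelling complex, at 4.46, 3.26 and 3.63 in H2BK131A, against 18.1, 21.1 and 18.6 in H2BK123A (-2.09 ± 0.12), PDE_09362, a SWI/SNF-related protein of subfamily D, at 89, 64.9 and 77.5 in H2BK131A, against 234, 236 and 233 in H2BK123A (-1.60 ± 0.18), and PDE_06349, described as a helicase of RNA-directed heterochromatin assembly, at 5.37, 5.54 and 5.64 in H2BK131A, against 18.6, 12.6 and 24.7 in H2BK123A. Over the whole list the log2 fold changes ran from -2.09 to 1.22. Some lists were wider, such as pigment (-8.97 to 5.28) and amylases (-6.21 to 1.34). Others were narrower, such as proteasome (-0.90 to 0.70) and autophagy (-1.59 to 0.69). These lists were picked with their values known.

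Markers of asexual structures were used to check the mycelium label. PDE_00087, BrlA, which in Aspergillus nidulans starts conidiophore development, was at FPKM 1.9, 2.06 and 2.06 in H2BK131A, against 8.95, 18.2 and 13.6 in H2BK123A, and at 412, 449 and 444 in DlaeA and 5.67, 19.7 and 28.9 in WT. PDE_03008, FlbD, an activator upstream of BrlA in A. nidulans, was at 5.48, 3.89 and 6.49 in H2BK131A, against 61.5, 74.3 and 64.5 in H2BK123A (-3.45 ± 0.23), and at 376, 365 and 372 in DlaeA and 63.8, 98.2 and 138 in WT. Both were lower in H2BK131A than in H2BK123A, PDE_00087 with a difference of -2.23 ± 0.42 on the log2 scale (limma, adjusted p = 0.000579). PDE_00079, also described as BrlA, was near 0, at 0.15, 0.59 and 0.58 in H2BK131A, against 0.74, 0.59 and 1.2 in H2BK123A, and was not called (limma, adjusted p = 0.184). PDE_01188, described as the spore wall maturation protein DIT1, varied within the strains, at 92.7, 537 and 420.3 in H2BK131A, against 75.6, 117 and 21.3 in H2BK123A, and was not called with all 12 libraries (limma, adjusted p = 0.12) but was without the WT libraries (limma, adjusted p = 0.0125). The marker set was these 4 conidiation genes and the 8 pigment genes given below. Of the 4 conidiation genes, 2 were called lower and 0 higher, against 35.8% and 32.9% of all genes. The log2 fold change of PDE_01188, not called, was positive (2.24). Of the 8 pigment genes, 4 were called higher and 4 lower, so the markers did not move in 1 direction. The summed FPKM of the 4 conidiation genes was 100.2, 543.2 and 429.4 in H2BK131A, against 146.8, 209.7 and 100.6 in H2BK123A, 789.9 to 819.2 in DlaeA and 124.0 to 446.5 in WT. In RNA from whole cultures, fewer cells of a type and less RNA per cell cannot be told apart. The part of asexual cells in the differences above was not tested.

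Among the 8 pigment genes, 4 were higher and 4 lower. Beside the cluster genes above, a second scytalone dehydratase locus, PDE_04496, named like the tyrosinase PDE_04505 after its value was seen, was at FPKM 1.27, 0.85 and 0.58 in H2BK131A, against 7.99, 11.9 and 10.1 in H2BK123A (-2.53 ± 0.37), and at 666, 512 and 479 in DlaeA. The tyrosinases, which oxidise phenols, were higher: PDE_04614 was at 23.5, 25 and 20.5 in H2BK131A, against 5.04, 3.41 and 5.42 in H2BK123A (2.11 ± 0.21), PDE_03554 at 48.3, 37.1 and 40.3 in H2BK131A, against 13.8, 9.75 and 13.3 in H2BK123A (1.70 ± 0.21), and PDE_04505 had a log2 fold change of 1.57. PDE_09491, described as a naphtho-gamma-pyrone polyketide synthase, a type known from spore pigment synthesis in Aspergillus, was at 109, 153 and 128 in H2BK131A, against 1.79, 2.69 and 2.61 in H2BK123A (5.28 ± 0.31), with WT at 0.84, 2.73 and 4.44 and DlaeA at 47.5, 59.3 and 63.7. The summed FPKM of the pigment list was 213.0, 245.5 and 219.9 in H2BK131A, against 2140.9, 1998.7 and 1796.9 in H2BK123A. WT replicate 2 had 969.0, against 7912.3 and 7395.3 in the other WT libraries.

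Of 22 genes matched as secondary metabolite backbone enzymes, 7 were higher (31.8%, against 32.9% of all genes) and 6 lower (27.3%, against 35.8%). Their median of 0.04 has no stable sign: it was -0.01 without H2BK123A replicate 1 or H2BK123A replicate 3, 0.13 without H2BK123A replicate 2, and 0.11 with quantile scaling. Several are prenyl chain enzymes rather than backbone enzymes, among them PDE_07205 and PDE_00149, described as geranylgeranyl diphosphate synthases. PDE_07205 had a log2 fold change of -2.97 ± 0.21 and PDE_00149 one of -1.41 ± 0.13. PDE_04441, described as a zearalenone-type polyketide synthase, was at 14.9, 20.1 and 17.9 in H2BK131A, against 2, 2.22 and 2.25 in H2BK123A (2.55 ± 0.13), and PDE_01235, described as an aspyridone synthetase, at 6.37, 8.94 and 12.2 in H2BK131A, against 1.19, 1.18 and 1.3 in H2BK123A (2.15 ± 0.18). PDE_03455, a polyketide synthase by its description, was called higher (0.61 ± 0.25, limma adjusted p = 0.043), a call lost without any 1 of the 6 libraries. Of 9 cytochrome P450 genes tested, 4 were higher (44.4%, against 32.9% of all genes) and 3 lower (33.3%, against 35.8%). Their median of 0.11 was -0.03 without H2BK123A replicate 1 and 0.31 without H2BK123A replicate 2. The widest were PDE_01426 at 11.5, 27.5 and 14.8 in H2BK131A, against 1.29, 1.76 and 2.3 in H2BK123A and PDE_01418 at 12.2, 17.5 and 16.1 in H2BK131A, against 62.3, 76.6 and 65.9 in H2BK123A. Among genes of the runs, PDE_10000, described as paspaline synthase, had a log2 fold change of -1.47. The run loci described as brevianamide F synthase were divided, with PDE_03416 higher (1.62) and PDE_00789 lower (-1.07).

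Cell wall genes moved in both directions. Of 120 genes for cell wall polymers, 42 were higher (35.0%, against 32.9% of all genes) and 33 lower (27.5%, against 35.8%). Their median was 0.08, 0.04 without H2BK131A replicate 1 and 0.05 without H2BK123A replicate 2. The filter was passed by 2 members through the H2BK131A libraries alone, which fixed their direction. PDE_07531, a putative chitin glucanosyltransferase, which links chitin to glucan, was at FPKM 269, 343 and 267 in H2BK131A, against 11.4, 3.5 and 10.7 in H2BK123A (5.08 ± 0.35), and at 0.48, 1.82 and 0.83 in WT. PDE_02219, a putative exo-beta-1,3-glucanase, was at 27.6, 25.3 and 26.3 in H2BK131A, against 0.92, 1.44 and 1.13 in H2BK123A (3.67 ± 0.13), and PDE_06567, described by its chitin binding domain, at 52.6, 51.2 and 46.1 in H2BK131A, against 3.54, 2.81 and 2.85 in H2BK123A (3.65 ± 0.12). The lower members PDE_01168, a putative chitinase, and PDE_00440, an alpha-1,2-mannosyltransferase, were at 0.64, 1.1 and 0.69 in H2BK131A, against 9.43, 10.6 and 10.7 in H2BK123A and at 3.31, 3.59 and 2.78 in H2BK131A, against 24.5, 36.4 and 30.4 in H2BK123A. PDE_08122, chitinase II, was at 11.3, 13.6 and 12 in H2BK131A, against 34.8, 37.9 and 34.9 in H2BK123A (-1.47 ± 0.50, limma adjusted p = 0.0201), and lost its call without H2BK131A replicate 1 or H2BK123A replicate 2. The WT libraries of PDE_08122 were at 867, 271 and 544.

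Of 90 peptidase genes, 36 were lower and 25 higher (median -0.10, -0.18 without H2BK123A replicate 3 and -0.05 with median-ratio scaling). PDE_09396, a vacuolar serine protease, was at FPKM 633, 521 and 593 in H2BK131A, against 2029, 2211 and 1824 in H2BK123A (-1.79 ± 0.17), and the aspergillopepsins, secreted acid proteases, were divided, with PDE_07927 at 48.3, 39.8 and 37.4 in H2BK131A, against 14.5, 15.3 and 10.2 in H2BK123A and PDE_08305 at 21.3, 20.0 and 16.5 in H2BK131A, against 74.7, 115 and 118 in H2BK123A. Of 56 oxidative stress genes, 25 were higher (44.6%, against 32.9% of all genes) and 16 lower (28.6%, against 35.8%). Their median was 0.32, and 0.18 with quantile scaling, and 1 passed the filter through the H2BK131A libraries alone. PDE_01808, thioredoxin 1, a small reductant of protein disulfides, was at 2402, 2577 and 2126 in H2BK131A, against 301, 246 and 317 in H2BK123A (3.04 ± 0.19), PDE_06355, a monothiol glutaredoxin, at 169, 208 and 202 in H2BK131A, against 18.2, 14.5 and 17.4 in H2BK123A (3.45 ± 0.13), and PDE_07249, catalase-peroxidase, which breaks down hydrogen peroxide, at 743, 617 and 671 in H2BK131A, against 2315, 2318 and 2050.0 in H2BK123A (-1.72 ± 0.20). Thioredoxin and glutaredoxin were thus higher and catalase-peroxidase lower in every H2BK131A library. Of 51 proteasome genes, 23 were higher and 7 lower (median 0.21), but 15 higher and 9 lower with quantile scaling (median 0.14), with changes of -0.90 to 0.70 on the log2 scale. PDE_08212, a regulatory particle subunit, was at 151, 162 and 160.3 in H2BK131A, against 106, 89.6 and 94.1 in H2BK123A (0.70 ± 0.10), and PDE_00230, described as subunit N4, was lower although its libraries overlapped, at 68.8, 126 and 82 in H2BK131A, against 120.5, 172 and 228 in H2BK123A. Of 11 autophagy genes, 7 were lower and 1 higher (median -0.47), with PDE_07525, ATG18 by its description, at 11.1, 9.76 and 10.9 in H2BK131A, against 34.1, 34.6 and 33.1 in H2BK123A (-1.59 ± 0.16) and PDE_08147, ATG2, at 21.8, 18.6 and 19.8 in H2BK131A, against 50.3, 55.6 and 50.9 in H2BK123A. Of 60 DNA replication genes, 15 were higher (25.0%) and 17 lower (28.3%), both below the shares over all genes. Their median of -0.01 became 0.03 with median-ratio scaling, 0.12 with quantile scaling and 0.01 without H2BK123A replicate 1. PDE_07756, subunit 2 of the origin recognition complex, which marks replication start sites, was at 246, 262 and 234 in H2BK131A, against 57.6, 47.3 and 52.3 in H2BK123A (2.22 ± 0.12).

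**Figure D5:**
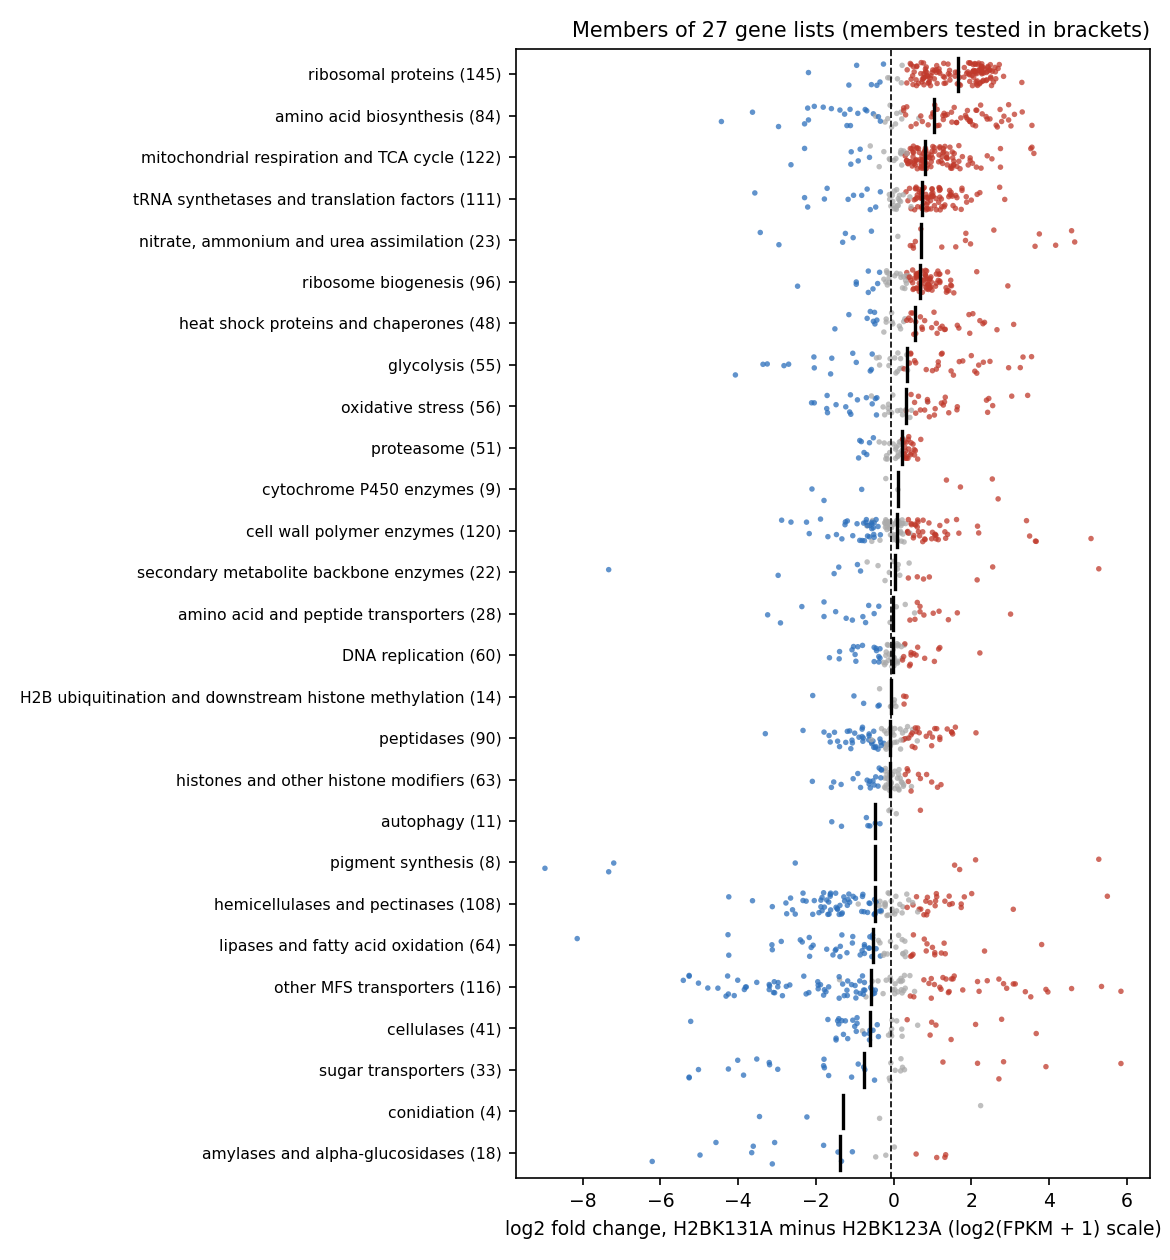
Log2 fold change, H2BK131A minus H2BK123A, of every tested member of 27 gene lists, with higher members in red, lower in blue and members not called in grey. The black ticks are list medians, from 1.65 for ribosomal proteins to -1.39 for amylases and alpha-glucosidases, and the dashed line is the median of all genes at -0.05.

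At some genes the mutants did not differ detectably although both were far from WT. PDE_06055, which has no description, was at FPKM 16.9, 9.88 and 11.9 in H2BK131A, against 13.3, 16.9 and 11.5 in H2BK123A, with overlapping libraries (-0.11 ± 0.71, limma adjusted p = 0.895), and at 4087, 277 and 2236 in WT. Its sign turned with quantile scaling (0.04), and its standard error, which includes the spread of WT, is too wide to show that the mutants were alike. The homocysteine methyltransferase locus PDE_05422, at 115, 158 and 159 in H2BK131A and 157, 108 and 142 in H2BK123A, was at 1.49, 5.49 and 2.15 in WT, and its log2 fold change against WT was 5.28 ± 0.30 for H2BK131A and 5.19 ± 0.30 for H2BK123A. In all, 2952 genes were not called between the mutants, and 6712 genes had an unadjusted p under 0.05.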

How the data were processed

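FPKM values of 12 libraries, 3 each of H2BK131A, H2BK123A, DlaeA and WT, were used as deposited by the authors, with 1 column per library per the file headers. The labels' protocols describe sequencing of short tags next to NlaIII sites, for which a length-scaled unit is unusual. For the aligner, counter, gene models and genome build, no name was given in the sources used here. Whole reads could not be recovered (41.2% of 1103 low values were whole within 0.1 read), so depth is unknown and no count test was run. Gene names came from the table: 5085 genes had a description or a single KEGG name.

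Genes with FPKM of 1 or more in at least 3 libraries were tested with limma 3.58.1 (R 4.3.3) on log2(FPKM + 1), with the 4 strains in 1 model, a mean-variance trend and two-sided p-values adjusted by the Benjamini-Hochberg method, and called at 0.05. Fold changes on this scale understate the change of low genes. The procedure was run on simulated data in which few genes changed. It therefore does not show how the procedure behaves where 68.7% of genes are called, as here. Groups came from the sample labels. Named genes were the 12 with the widest called difference in each direction with libraries apart and a mean FPKM of at least 10 in the higher strain, up to 3 members per list and direction at the same level, all members of the H2B ubiquitination list and of lists of 5 or fewer, loci known from an earlier analysis, and described genes of runs. The 28 lists were matched by words in the descriptions, and 1 list (velvet and LaeA family) matched 0 genes. Members and lists were chosen with earlier results of these data known. Alternatives covered the pseudocount, filter, scaling, samples, variance model, replicate block and each library left out.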

Additional observations from a re-analysis of the deposited data

How the results depend on the processing

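Called genes numbered 6479 with the reported settings, 5939 to 6200 when each library of the mutants was left out in turn, 6120 with a filter at 5 FPKM, 6595 without a filter, 6447 with a pseudocount of 0.1, 6618 with median-ratio and 6628 with quantile scaling, 6466 without the variance trend, 7034 without the WT libraries and 7059 with the 2 strains alone. Replicate numbers did not pair the libraries: deviations of same-numbered libraries correlated at -0.01, -0.174 and -0.106, and no library correlated best with its own number. With the replicate block 6359 genes were called, 3047 higher and 3312 lower, and the call of PDE_04952 was lost (limma, adjusted p = 0.0514).

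The following list medians moved by more than the spread of the library medians (the SDs of both mutants combined), and the cause was not tested. The pigment median was -0.85, against -0.48 as reported, with a pseudocount of 0.1. With the stricter filter, medians were -0.79 (hemicellulases, -0.48 as reported), -0.78 (MFS transporters), -2.23 (conidiation, -1.29 as reported) and -0.61 (lipases), with fewer genes tested. The heat shock median was 0.59 with median-ratio scaling. With quantile scaling, medians were 0.01 (all genes), -0.47 (cellulases), -0.48 (lipases), 0.18 (oxidative stress, 0.32 as reported), 0.69 (respiration), 1.5 (ribosomal proteins), -0.34 (autophagy) and 0.12 (DNA replication). With 1 library left out, the cellulase median ran from -0.66 to -0.47 and called members of the H2B ubiquitination list from 5 to 8. Some other medians near 0 moved by over 1.5 times or turned sign within that spread and are given with their lists.

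Among the named genes, signs turned only at genes that were not called. With quantile scaling these were PDE_01489 (-0.03), PDE_03581 (0.008), PDE_05422 (-0.03) and PDE_06055 (0.04). With 1 library left out, the ranges were -0.06 to 0.07 for PDE_00581, -0.0036 to 0.04 for PDE_01442, -0.00036 to 0.1 for PDE_02281, -0.74 to 0.0099 for PDE_02771, -0.07 to 0.24 for PDE_05422 and -0.31 to 0.05 for PDE_06055. Of 4433 values of 296 named genes under these alternatives, 4387 kept direction and call, 26 lost the call, 6 gained it and 14 turned sign.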
